A study of Drosophila melanogaster with 96 samples.

Results

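The Bomanins are a family of short secreted peptides that Drosophila makes during an immune response. The 9 genes described here are the short-form genes BomS1 to BomS6 and the bicipital genes BomBc1 to BomBc3, chosen by their FlyBase symbols, out of 17610 genes in the deposited count table. All 9 were found in the table, and all 9 passed the filter on low counts. The choice was by name and not by a cut on values, but earlier results of these data were known when it was made. They were followed in RNA from heads of adult Drosophila melanogaster labelled male, of ISO1, the inbred strain from which the reference genome was sequenced. The flies lived at 18 °C, 25 °C or 29 °C without any light, or at 25 °C under a cycle of 12 h light and 12 h dark. Heads were collected on days 4 and 5 at hours 0, 4, 8, 12, 16 and 20 with 2 biological replicates, which gave 24 libraries per condition and 96 in all. The labels name no infection or other treatment, and do not say what event the days are counted from, when darkness began, or whether hour 0 is lights-on.

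Bomanin genes are switched on by the Toll pathway, mainly in the fat body, the fly organ that combines liver-like and fat-storing functions, and their peptides are released into the blood. Toll itself is not a microbe sensor in flies: recognition proteins bind microbial walls and start a protease cascade, which cuts the ligand Spätzle so that it can bind the Toll receptor, and NF-kappaB factors then enter the nucleus. Short-form Bomanins carry little more than the conserved Bomanin motif, bicipital ones carry a pair of motifs joined by a linker, and flies without the main Bomanin cluster are known to die of infections with fungi and many Gram-positive bacteria.

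In the BDGP6.54 annotation, 8 of the genes lie within 7.926 kb on chromosome arm 2R (18382704 to 18390629), in the order BomBc1, BomS1, BomS4, BomBc2, BomS2, BomS3, BomS5 and BomS6. BomBc3 lies on arm 3R (22087075 to 22088501, plus strand), 677 bp from BomT3, a gene of the tailed Bomanin form. The genome build behind the deposited counts is not given in the sources used here, so these positions describe the annotation and not the counting. The genes are short, from 198 bases of annotated exon in BomS6 to 1301 in BomBc3, each with 2 or 3 exons. BomS4 on the plus strand and BomBc2 on the minus strand overlap by 88 bases. The values of these genes were not whole numbers in 44.8% (BomBc3) to 87.5% (BomS6) of the libraries, so fractions of reads were counted for each gene. How reads that match several family members were assigned is not given in the sources used here, and levels of single family members are uncertain to that extent.

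Library totals ran from 17.3 to 34.7 M counts (1 M is 1000000) with a median of 21.1 M, and the lowest count of any of the 9 genes in any library was 451, for BomS4. Levels are given as CPM, counts per 1000000 after scaling between libraries with TMM factors. Markers of head tissue were present: the summed level of 8 fat body markers had a range of 6083 to 16011 CPM over the 96 libraries, that of 7 haemocyte markers 1062 to 2112 CPM and that of 6 neuronal markers 1800 to 2955 CPM. Of 7 gut markers, 5 had a mean under 1 CPM, and all 4 accessory gland markers were under 1 CPM. The yolk protein genes Yp1, Yp2 and Yp3, which are known as products of the female fat body, were at medians of 17195, 9131 and 13505 CPM although all libraries were labelled male. The same libraries held lncRNA:roX1, a male dosage compensation RNA, at a median of 494 CPM. The 2 eggshell genes Vm26Aa and Cp36, made by the follicle cells of the ovary, were under 1 CPM. RNAs typical of each sex were thus present together, and the flies are called "labelled male" here for that reason. In bulk heads, fewer cells of a type and less RNA per cell cannot be told apart.

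All 9 genes were expressed in every library without any named challenge, and together they summed to 1565 ± 373 CPM (SD, n = 96). BomBc2 and BomS3 gave the highest levels in CPM, with means of 398 and 371 over the 96 libraries, and BomS4, BomBc3 and BomS5 the lowest, with 48.3, 48.6 and 51.6. The order within these sets varied with condition: at 18 °C BomS5 (46.7 CPM) was below BomS4 (53.0 CPM), and at 29 °C BomS3 (441 CPM) was above BomBc2 (433 CPM). Per kb of annotated exon the order changed. BomS6 was then highest at 949 CPM per kb, and BomBc3 was lowest at 37.4 CPM per kb. Between them came BomBc2 at 560, BomS1 at 552, BomS2 at 492, BomS3 at 482, BomS5 at 237, BomS4 at 172 and BomBc1 at 170 CPM per kb. Neighbours in this order from BomBc2 to BomS3, and BomS4 with BomBc1, were closer than their coefficients of variation over the libraries, which were 21.4% to 27.0%. These coefficients describe single libraries and not the error of a mean, and the order was not tested. Over all 96 libraries BomS6 varied most, with a coefficient of variation of 49.7% and a 13.4-fold range from 35.2 to 472 CPM, against 21.4% to 30.9% for the other 8 genes. That figure includes its differences between conditions. Within conditions it was 33.9% at 18 °C, 44.8% at 25 °C in darkness, 35.3% at 29 °C. Under light-dark cycles it was 29.0%, where BomBc1 (30.2%) and BomS5 (30.1%) varied more.

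**Figure D1:**
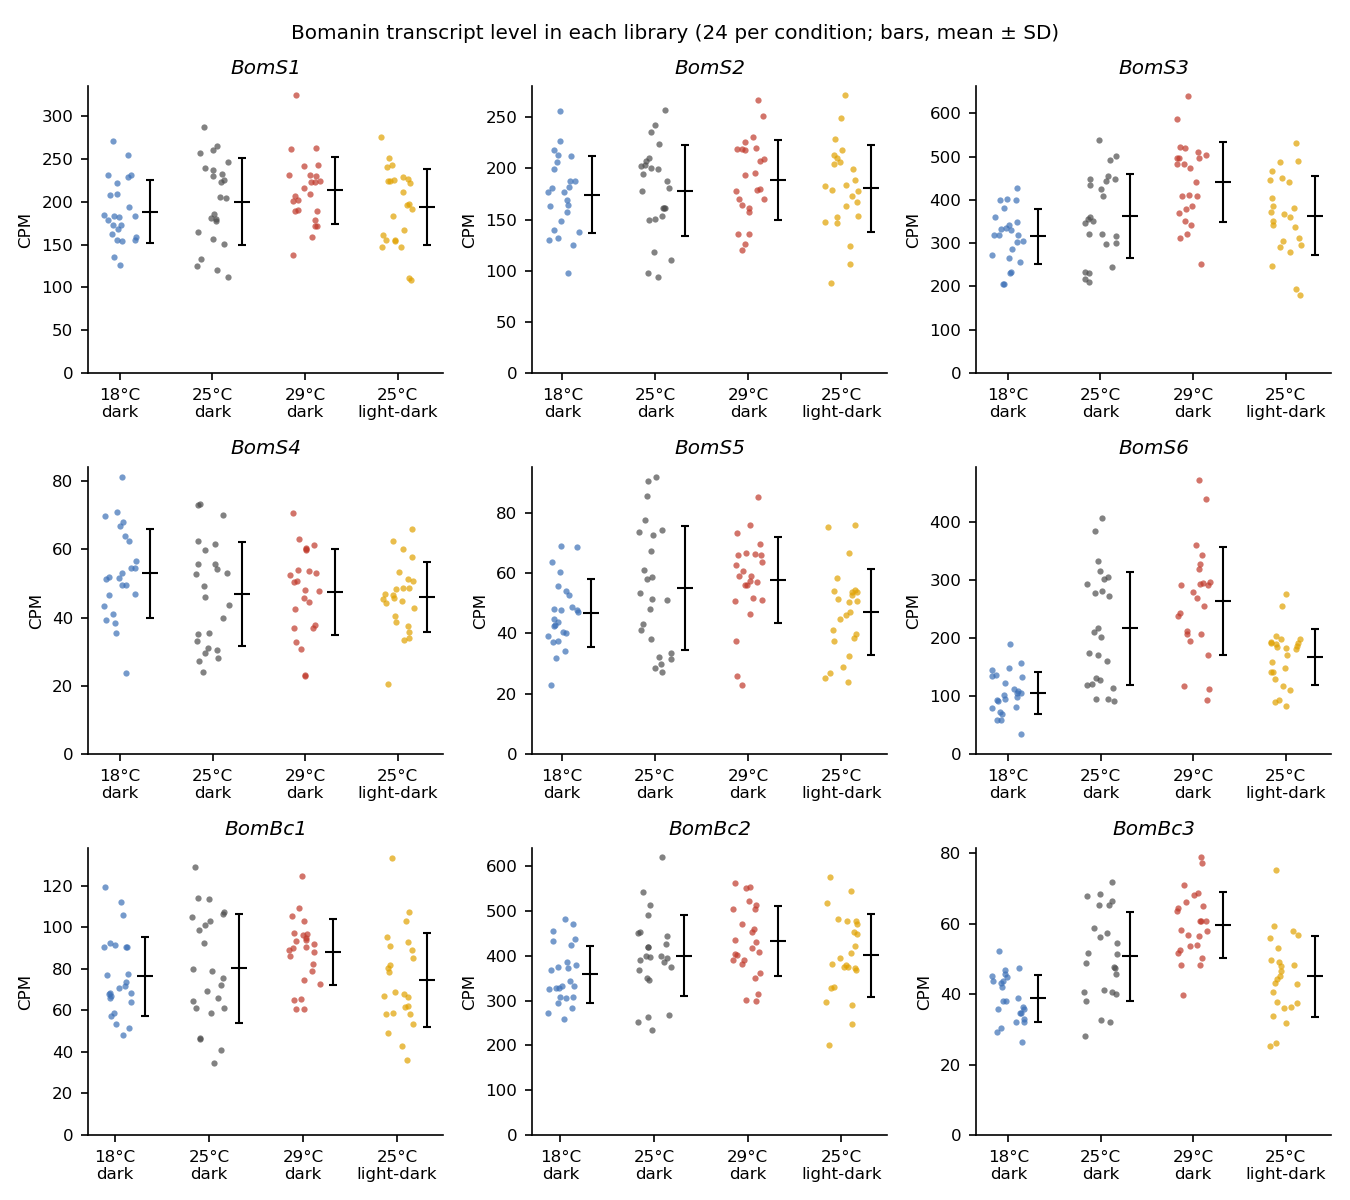
Level of each Bomanin gene in every library, in CPM (vertical axis from 0), for flies at 18 °C, 25 °C and 29 °C in darkness and at 25 °C in a light-dark cycle (24 points per condition; black bars are mean ± SD). BomS6 has the lowest points at 18 °C (mean 105 CPM) and the highest at 29 °C (mean 263 CPM), while BomS1, BomS2 and BomS4 have similar clouds of points in all 4 conditions.

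Bomanin levels differed with temperature. From 18 °C to 29 °C in darkness the summed level went from a mean of 1358 to 1793 CPM, and it was higher at 29 °C at 12 of 12 time points. In the edgeR quasi-likelihood test, with Benjamini-Hochberg adjusted p under 0.05 over 10702 genes, 6 of 9 genes were called between 29 °C and 18 °C, and all 6 were higher at 29 °C. The called share of all tested genes in this comparison was 74.5%, with 38.0% higher. The 66.7% of Bomanin genes called was thus no larger than the background, while all called members went 1 way. Since the 9 genes vary together from library to library, that common direction is not 6 separate pieces of evidence. The median log2 fold change of the 9 genes was 0.27, against 0.01 for all tested genes. The comparisons below that involve 25 °C in darkness share those 24 libraries.

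BomS6, a short-form gene at the edge of the cluster, had the largest difference of the 9 at the fitted values. At 18 °C its lowest, median and highest levels were 35.2, 103 and 189 CPM. They were 91.4, 206 and 406 CPM at 25 °C in darkness. At 29 °C they were 93.7, 274 and 472 CPM. The ranges overlapped, but 0 of 24 libraries at 18 °C lay above the median of 25 °C in darkness, and 23 of 24 libraries at 29 °C lay above the median of 18 °C. The level was 2.50-fold higher at 29 °C than at 18 °C (95% interval 2.02 to 3.09; log2 fold change 1.32 ± 0.16 (SE), edgeR adjusted p = 2.98e-12). It fell by 1.04 on the log2 scale from 25 °C to 18 °C (SE 0.16, edgeR adjusted p = 1.1e-08). Between 29 °C and 25 °C the log2 difference was 0.29 ± 0.15 (SE) and did not pass the test (edgeR adjusted p = 0.165). Of 13 alternative settings 3 called it: without replicate 1, with a block for day, hour and replicate number, and with 2 residual components as covariates.

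BomBc3, the bicipital gene that stands outside the cluster, had the next largest difference. Its lowest, median and highest levels were 26.6, 38.0 and 52.4 CPM at 18 °C. They were 28.3, 50.1 and 72.0 CPM at 25 °C in darkness and 39.9, 59.5 and 78.9 CPM at 29 °C. All 24 libraries at 29 °C lay above the median of 18 °C, although the ranges overlapped. BomBc3 was 1.55-fold higher at 29 °C than at 18 °C (log2 fold change 0.63 ± 0.09 (SE), edgeR adjusted p = 4.2e-10). It fell by 0.39 on the log2 scale from 25 °C to 18 °C (SE 0.09, edgeR adjusted p = 4.7e-05) and rose by 0.24 ± 0.09 from 25 °C to 29 °C (edgeR adjusted p = 0.0287).

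BomS3, the short-form gene with the highest level in CPM, was higher by 0.49 ± 0.10 (SE, log2 scale) at 29 °C than at 18 °C (edgeR adjusted p = 8.9e-06). Its lowest, median and highest levels were 205, 319 and 428 CPM at 18 °C, 211, 354 and 539 CPM at 25 °C in darkness, and 253, 457 and 640 CPM at 29 °C. It was higher at 29 °C than at 18 °C, and than at 25 °C, at 12 of 12 time points. A further 3 genes were called in the comparison of 29 °C with 18 °C, all with smaller log2 differences: the short-form genes BomS5 (0.31 ± 0.12 (SE), edgeR adjusted p = 0.0156) and BomS1 (0.18 ± 0.09, edgeR adjusted p = 0.048), and the bicipital gene BomBc2 (0.27 ± 0.07, edgeR adjusted p = 0.0010). Of 13 alternative settings, 6 called BomS1 and 10 called BomS5, which like BomS1 was not called without replicate 2 or with day 5 alone. BomBc2 was called in 11, and not with day 4 alone. BomS2 and BomBc1 had log2 differences of 0.12 ± 0.10 and 0.21 ± 0.11 and did not pass. BomS4 had the opposite sign, at -0.15 ± 0.12 with a 95% interval of the fold from 0.769 to 1.05, and was higher at 29 °C at 3 of 12 time points.

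Split at 25 °C, 2 of 9 genes were called on each side. Between 18 °C and 25 °C both called genes, BomS6 and BomBc3, were lower at 18 °C, where 66.8% of all tested genes were called and 34.1% were lower. Between 29 °C and 25 °C both called genes, BomS3 (0.28 ± 0.10 on the log2 scale, edgeR adjusted p = 0.0234) and BomBc3, were higher at 29 °C, where 26.8% of all genes were called and 13.8% were higher. The share of the 9 genes called was thus below the share of all genes called in the first comparison and close to it in the second. The calls between 29 °C and 25 °C did not hold in most subsets of the libraries: 0 of 9 genes were called with day 4 alone, with day 5 alone or without replicate 2. Without replicate 1 BomS3 stayed called, BomBc3 was not called, and BomS6 was called as higher at 29 °C. Between 18 °C and 25 °C, 5 genes were called without replicate 1, and 1, BomS6, without replicate 2. Of the 5, BomS4 was called as higher at 18 °C and the others as lower.

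**Figure D2:**
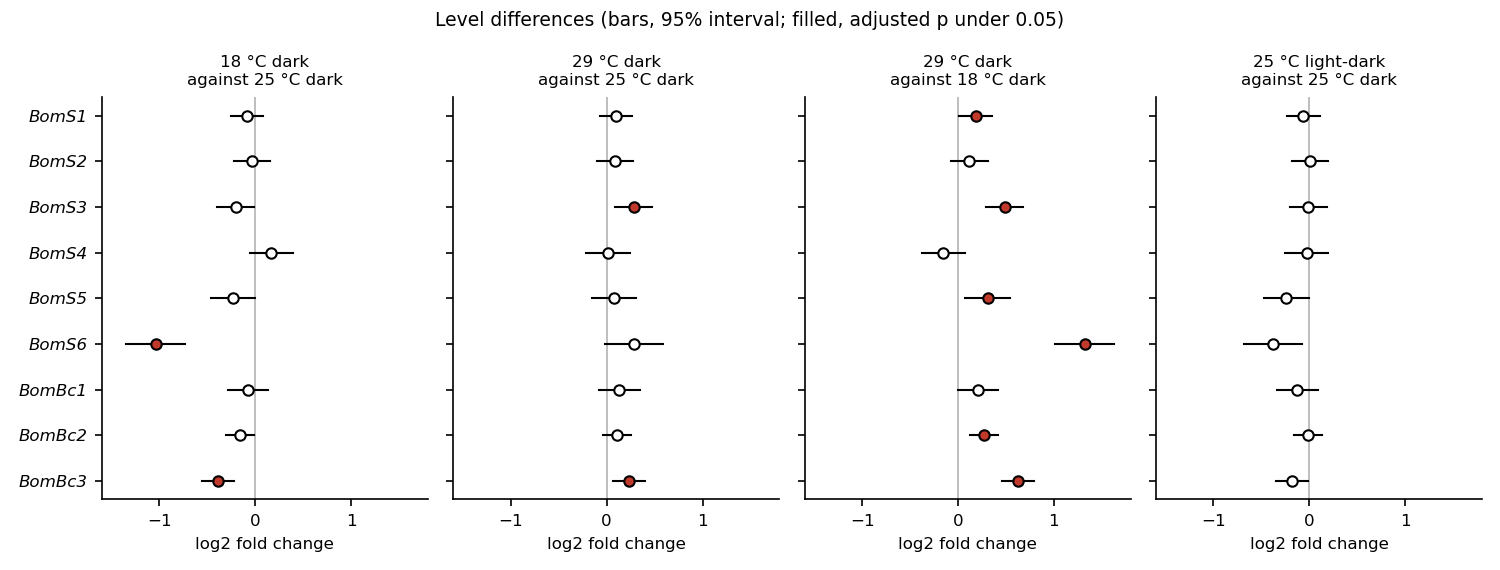
Log2 fold change of each Bomanin gene in 4 comparisons of mean level (points; bars are 95% intervals from the edgeR quasi-likelihood fit; filled points have an adjusted p under 0.05). The 6 filled points between 29 °C and 18 °C are all to the right of 0, from BomS1 at 0.18 to BomS6 at 1.32, and there are 0 filled points in the comparison of light-dark cycles with darkness.

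The makeup of the Bomanin transcript pool differed between temperatures, most of all in the share of BomS6. BomS6 made up 7.59% ± 1.65 of the summed CPM at 18 °C, 13.0% ± 3.04 at 25 °C in darkness and 14.3% ± 3.20 at 29 °C. Its share was higher at 29 °C than at 18 °C at 12 of 12 time points, and 21 of 24 libraries at 29 °C had a share above the highest at 18 °C. BomS4 went the other way, from 3.88% ± 0.516 at 18 °C to 2.62% ± 0.393 at 29 °C, and was lower at 29 °C at 12 of 12 time points, with 12 of 24 libraries below the lowest at 18 °C. The shares of BomS2 and BomS1 were also lower at 29 °C at 12 of 12 time points, at 0.82 and 0.86 of their value at 18 °C, with 17 and 13 libraries below the lowest at 18 °C. Those of BomBc3 and BomS3 were higher at 12 of 12, at 1.17 and 1.06 of their value at 18 °C. BomS3 and BomBc2 together held the largest shares in each of the 4 conditions, at 22.9% to 24.5% and 24.4% to 26.5%. All shares are parts of the same sum, so the higher share of BomS6 by itself lowers the others. The levels of BomS2 and BomS1 had positive fitted log2 differences between 29 °C and 18 °C (0.12 and 0.18), so their lower shares do not stand for lower levels. That of BomS4 was -0.15 and was not called. The shares are described without a test, and they depend on how reads were assigned to the genes.

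**Figure D3:**
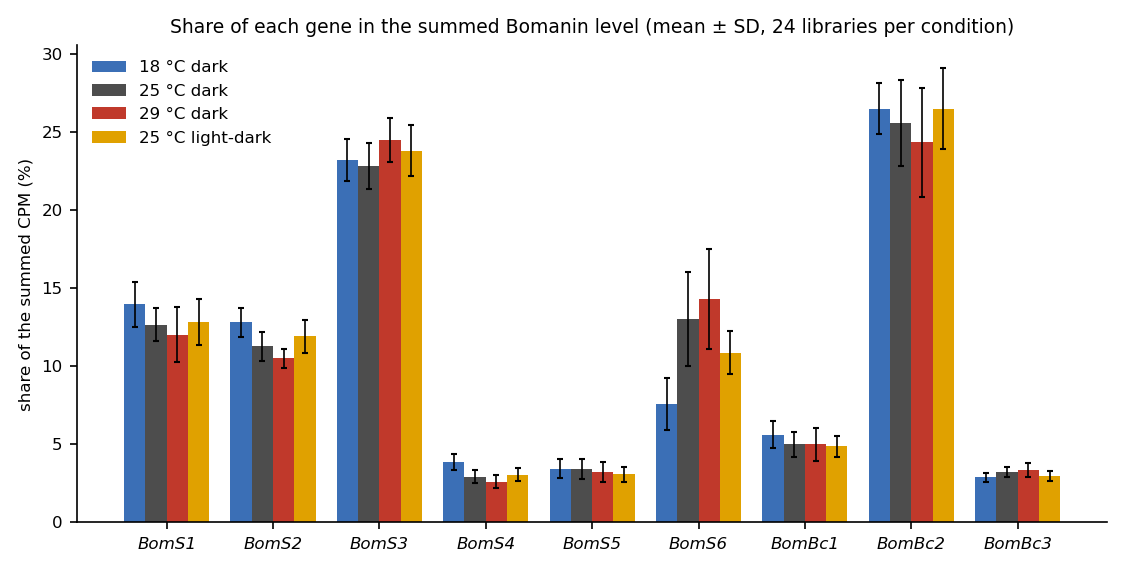
Share of each gene in the summed Bomanin level, in percent of the summed CPM (bars from 0, mean ± SD of 24 libraries per condition). The bars of BomS6 step up from 18 °C to 29 °C in darkness, with the light-dark cycle at 25 °C between 18 °C and 25 °C in darkness, and those of BomS4 and BomS2 step down.

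Light made no called difference to the mean level of any Bomanin gene at 25 °C. The summed level was 1518 ± 346 CPM in the light-dark cycle and 1591 ± 422 CPM in darkness (SD, n = 24 each). With edgeR 0 of 9 genes were called, where 22.8% of all genes were, while 3 of 9 had an unadjusted p under 0.05 and DESeq2 called 0. These 3 were BomS6 (log2 difference -0.38 ± 0.15 (SE), edgeR adjusted p = 0.067), BomS5 (-0.24 ± 0.12) and BomBc3 (-0.18 ± 0.09), each lower in the light-dark cycle. BomS6 was at 81.8, 182 and 275 CPM (lowest, median and highest) in the light-dark cycle, inside its range in darkness, and was lower in the light-dark cycle at 10 of 12 time points. Of 13 alternative settings 4 called it as lower: without replicate 1, with a block for day, hour and replicate number, and with either 2 residual components or the short-transcript level as covariates. For the other 6 genes the log2 differences lay between -0.13 and 0.01. The 95% intervals of the fold over all 9 genes reached from 0.625 to 1.15, which bounds the differences that these libraries allow.

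Within the light-dark cycle the level of Bomanin genes varied with the hour, with a called rhythm in 4 of 9. Over the 4 libraries of each hour, the hour-0 mean was the lowest of the 6 hours for 9 of 9 genes, and the highest mean was at hour 16 for 7 genes and at hour 8 for BomBc2 and BomS4. Hour 12, between them, was below hours 8 and 16 for 9 of 9 genes and below hour 20 for 5. In replicate 1 hour 0 was the lowest hour for 9 of 9 genes, and the summed level was 806 and 840 CPM. In replicate 2 it was the lowest for 1 of 9 genes, and the sums of 1428 and 1443 CPM lay above those of hour 4 (1189 and 1417 CPM). They were below those of hour 8 (1792 and 1872 CPM), hour 12 (1787 and 1808 CPM) and hour 16 (1921 and 2280 CPM). A summed level lower at hour 0 than at hours 8 to 16 was thus seen in both replicates. The summed level was 1129 ± 354 CPM at hour 0 and 1865 ± 385 CPM at hour 16 (SD, n = 4 each), with ranges of 806 to 1443 and 1348 to 2280 CPM that overlapped. The 24 h rhythm was called for 4 of 9 genes in edgeR, against 14.2% of all tested genes. The 9 genes vary together, so these are not 4 separate pieces of evidence. They were BomS1, BomS5, BomBc1 and BomBc2, with fitted peaks between hours 12.2 and 13.97. The fitted curve has a single maximum, so these peaks fall between the higher measured means of hours 8 and 16.

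BomS1 had 134 ± 28.1 CPM at hour 0 and 246 ± 23.1 CPM at hour 16 (SD, n = 4 each), with the 4 libraries of hour 0 (109 to 162 CPM) below the 4 of hour 16 (226 to 276 CPM). Its fitted amplitude, which is how far on the log2 scale the curve's peak lies above its mean, was 0.34 ± 0.09 (SE) with a peak at hour 13.7 ± 0.95 (edgeR adjusted p = 0.0109). BomBc2 had an amplitude of 0.31 ± 0.08 and a peak at hour 12.2 ± 0.91 (edgeR adjusted p = 0.00695). BomS5 and BomBc1 had the largest amplitudes, 0.42 ± 0.12 and 0.36 ± 0.11, with peaks at hours 13.7 and 13.97 and adjusted p-values closer to the threshold (edgeR, 0.0361 and 0.0414). The 5 genes that did not pass had amplitudes of 0.18 to 0.29 and fitted peaks between hours 12.5 and 14.4. The median amplitude of the 9 genes was 0.29, against 0.08 for all tested genes and 0.21 for the called ones. Of the 4 Bomanin rhythm calls, 3 held without replicate 1 (BomS1, BomBc1 and BomBc2) and that of BomS5 did not. With day 4 alone, with day 5 alone or without replicate 2, 0 of 9 genes were called. BomBc1 was also not called with limma-voom or with no filter on low counts.

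In constant darkness 0 of 9 genes had a called rhythm at 18 °C, at 25 °C or at 29 °C, where 0.196%, 0.439% and 0.140% of all genes were called. The number with an unadjusted p under 0.05 in edgeR was 0 at each temperature, and limma-voom also called 0. The median fitted amplitudes of the 9 genes were 0.13, 0.12 and 0.08 on the log2 scale, against 0.055, 0.057 and 0.056 for all tested genes. A median amplitude above that of all genes was thus also seen where no Bomanin rhythm was called. At 25 °C in darkness hour 0 had the lowest mean for 7 of 9 genes, and at 18 °C for 4, whereas at 29 °C the lowest mean was at hour 16 for 5 genes and at hour 4 for 4. At 25 °C this too was seen in replicate 1 and not in replicate 2. Replicate 1 had summed levels of 922 and 959 CPM at hour 0, its lowest hour for 9 of 9 genes. In replicate 2 hour 0 was the lowest for 0 of 9 genes, and its sums of 1666 and 2047 CPM had a mean below that of hour 12 alone. At 18 °C hour 0 was the lowest for 8 of 9 genes in replicate 1 and for 0 of 9 in replicate 2. At 25 °C the rhythms with and without light were also tested against each other. A difference in rhythm was called for 0 of 9 genes (lowest edgeR adjusted p 0.67; 0 with an unadjusted p under 0.05; limma-voom 0), against 5.26% of all genes. A rhythm in the light-dark cycle and none in darkness was therefore seen by the threshold and not by a test of the difference.

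**Figure D4:**
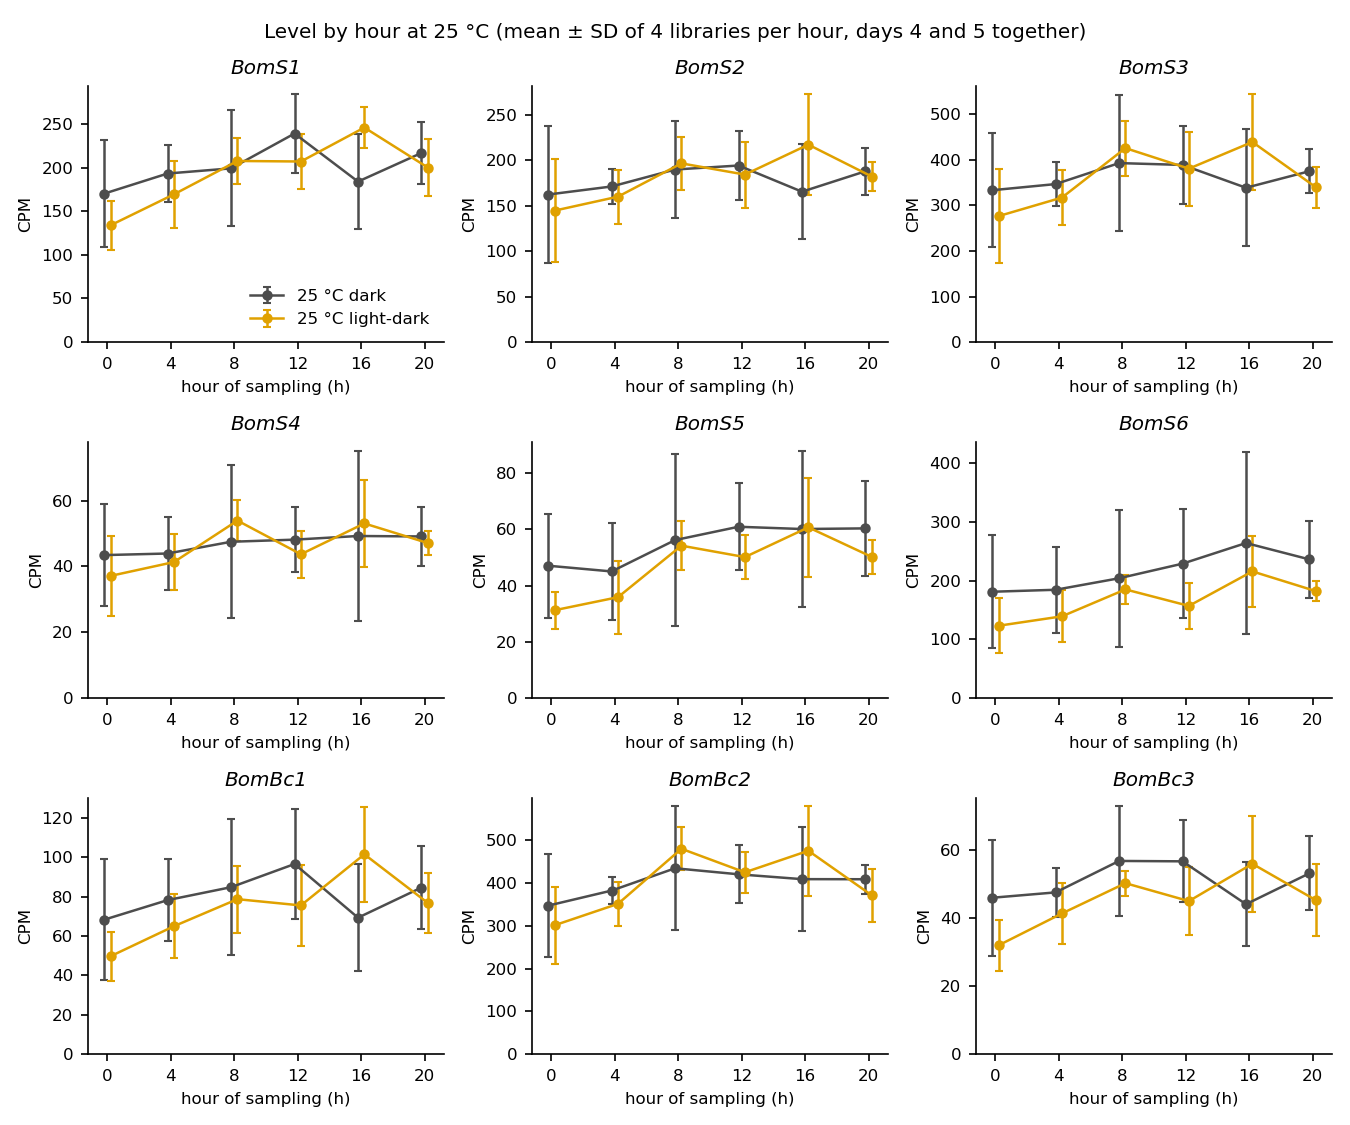
Level of each Bomanin gene by hour of sampling at 25 °C, in CPM (points are means of 4 libraries, bars ± SD, days 4 and 5 together), in constant darkness and in the light-dark cycle. In the light-dark cycle all 9 profiles start at their lowest mean at hour 0. The summed level there is 806 and 840 CPM in replicate 1 and 1428 and 1443 CPM in replicate 2. Hour 0 is the lowest hour for 9 of 9 genes in replicate 1 and for 1 of 9 in replicate 2. The bars of the 2 conditions overlap at nearly every hour.

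No Bomanin gene was called between days 4 and 5. The day shift was called for 0 of 9 genes in each condition, where 2.21% (18 °C), 2.71% (25 °C darkness), 0.290% (29 °C) and 0.168% (light-dark cycle) of all genes were called. At an unadjusted p under 0.05 the numbers were 0, 1, 1 and 1, and DESeq2 and limma-voom called 0. The fitted shifts were towards higher levels on day 5 for 9 of 9 genes at 18 °C, at 25 °C in darkness and in the light-dark cycle, with medians of 0.18, 0.12 and 0.11 on the log2 scale, and for 6 of 9 at 29 °C, with a median of 0.03. At 25 °C in darkness and at 29 °C this direction depended on replicate 1. At 25 °C in darkness the summed level went from 1167 to 1710 CPM between the days in replicate 1 and from 1848 to 1639 CPM in replicate 2. Without replicate 1 the shift there was towards lower levels for 8 of 9 genes (median -0.19), and BomS4 was called as lower on day 5 (-0.47 ± 0.15 (SE), edgeR adjusted p = 0.0285). At 29 °C it was then lower for 6 of 9 (median -0.05), while 9 of 9 at 18 °C and 7 of 9 in the light-dark cycle were still higher. The difference in day shift between conditions was called for 0 of 9 genes in the 3 comparisons tested, with 0 genes at an unadjusted p under 0.05 (all genes: 2.37%, 0% and 0% called).

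Bomanin levels differed with the replicate number. Libraries numbered 2 were higher than those numbered 1 for 7 of 9 genes, where 51.9% of all tested genes were called and 26.3% were higher. The log2 differences were largest for BomS6 (0.48 ± 0.10 (SE)), BomS2 (0.39 ± 0.05) and BomS3 (0.36 ± 0.06), and BomS1 and BomS5 were not called. On day 4 the summed level was 1272 ± 275 CPM in replicate 1 and 1710 ± 309 CPM in replicate 2 (SD, n = 24 each), and replicate 2 was higher in 22 of 24 pairs of the same condition and hour. On day 5 the means were 1565 ± 387 and 1712 ± 342 CPM, and replicate 2 was higher in 14 of 24. With day 4 alone 9 of 9 genes were called, and with day 5 alone 1, BomS2. With 2 residual components as covariates the direction turned: 6 of 9 genes were lower in replicate 2, and BomS1 (-0.18) and BomBc2 (-0.08) were called as lower. These components were taken from the residuals of a fit without a replicate term. They can hold the replicate shift itself, so this turn does not tell the direction of that shift. The labels do not say what the number marks, such as a collection run or a cage. Each condition holds both numbers equally, and the difference in replicate shift between conditions was called for 0 of 9 genes in the 3 comparisons tested, with 2, 1 and 0 genes at an unadjusted p under 0.05 (DESeq2 0; all genes: 0.112%, 0% and 0.0280% called).

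The 9 genes varied together from library to library. After the condition means, 24 h curves and day shifts were taken out, the residual log2 levels of the 36 gene pairs had Pearson correlations of 0.55 to 0.94 over the 96 libraries, with a median of 0.76, given here as a description. The closest pairs were BomS2 with BomS3 and BomS4 with BomS6, both at 0.94, and the most distant was BomS5 with BomBc2 at 0.55. BomBc3, though on another chromosome, had a correlation of 0.87 with the summed level, as had BomS1 in the cluster. The libraries share their preparation, and the correlations include whatever moved many transcripts of a library at once.

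The same residual was followed by other transcripts. Of all tested genes other than the 9, the 10 closest to the residual summed level over the 96 libraries were CG16704 (correlation 0.94), CG43114 (0.91), Dso1 (0.90), BomT2 (0.90), CG9928 (0.89), IM33 (0.89), CG16713 (0.89), CG44008 (0.89), Adi1 (0.88) and lncRNA:CR33942 (0.88), against a median of 0.04 over all tested genes. Dso1 encodes the antifungal peptide Daisho, a Toll effector, and BomT2 is a tailed Bomanin that lies inside the 2R cluster. The level of 339 other short protein-coding transcripts (under 600 bases of exon, no listed gene), taken as a mean log2 CPM per library, had a correlation of 0.81 with the residual Bomanin sum. Residual correlations with marker sums were 0.56 for fat body, 0.38 for haemocytes and 0.50 for the female list, and -0.68 for neurons, -0.50 for photoreceptors and -0.57 for lncRNA:roX1. Libraries with more Bomanin RNA thus also had more RNA of short genes and of fat body and less of neurons and photoreceptors. The part of these in the results was not tested one by one.

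Some of these measures also moved with the groups compared. The short-transcript level averaged -0.06 at 18 °C, -0.01 at 25 °C in darkness, 0.01 in the light-dark cycle and 0.05 at 29 °C on the log2 scale, and 0.09 in replicate 2 of day 4 against -0.06 in replicate 1. With it as a covariate, an alternative added after the data were seen, BomS6, BomBc3 and BomS3 were still called between 29 °C and 18 °C, at log2 differences of 0.90, 0.43 and 0.22. BomS4 was then called as lower at 29 °C (-0.48), and BomS1, BomS5 and BomBc2 were not called. Fat body markers went the other way from the Bomanins with temperature, with mean sums of 10730 ± 2247 CPM at 18 °C and 9038 ± 1646 CPM at 29 °C (SD). Photoreceptor markers went the same way as the Bomanins, from 52763 ± 10513 to 74508 ± 10871 CPM. So did neuronal markers (2289 ± 284 to 2486 ± 243 CPM) and the median of lncRNA:roX1 (379 to 578 CPM). These sums were not tested. Between replicates 1 and 2 of day 4 the fat body sum went the same way, from 8291 to 10094 CPM, and the neuronal sum fell from 2565 to 2265 CPM. The female list went from 41386 ± 11203 CPM at 18 °C to 35814 ± 8463 CPM at 29 °C (SD), and its part in the Bomanin differences was not tested.

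**Figure D5:**
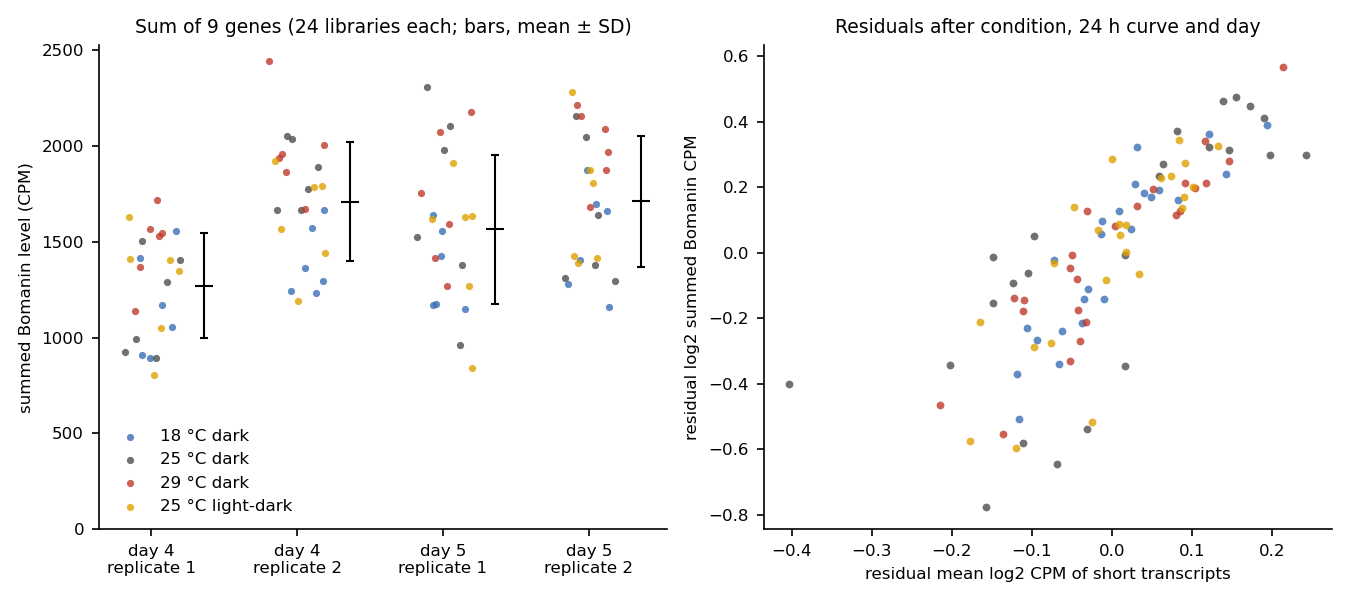
Left, summed level of the 9 Bomanin genes in each library, in CPM, by day and replicate number (24 points each; black bars are mean ± SD); the points of day 4, replicate 1 lie lowest, with a mean of 1272 CPM. Right, residual log2 summed level against the residual mean log2 CPM of 339 short transcripts, 1 point per library (96 in all, correlation 0.81), coloured by condition.

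Upstream Toll genes were called in both directions. Of the recognition and protease genes, 12 were tested of 13 listed; between 29 °C and 18 °C 5 were called higher and 4 lower, with a median log2 difference of -0.04. Of all tested genes 38.0% were called higher and 36.5% lower in that comparison, with a median of 0.01. The ligand gene spz was lower at 29 °C (-0.47 ± 0.02 (SE) on the log2 scale), as was psh, the protease that senses microbial enzymes (-0.47 ± 0.06), while the cascade protease spirit was higher (0.40 ± 0.03). Against 25 °C, 5 were called higher and 3 lower at 18 °C (32.7% and 34.1% of all genes), and spz and psh were higher there (0.40 ± 0.02 and 0.37 ± 0.06). GNBP3, a sensor of fungal glucans, was higher at 18 °C than at 25 °C (0.29 ± 0.07), and GNBP1, a partner of the bacterial sensor PGRP-SA, was higher at 29 °C than at 25 °C (0.17 ± 0.03).

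Of 13 receptor and intracellular signalling genes tested, 1 was called higher at 29 °C than at 18 °C and 8 lower, with a median log2 difference of -0.12, where 38.0% of all genes were called higher and 36.5% lower. The receptor gene Tl was lower (-0.38 ± 0.02 (SE) on the log2 scale), and so was Gprk2, a kinase needed for full Toll output (-0.35 ± 0.03). The kinase gene pll, which acts below the receptor, was the 1 called higher (0.41 ± 0.04). Light made called differences of at most 0.11 on the log2 scale here, in Pli and Tl (both higher in the light-dark cycle) and in tub (lower), 3 of 13 where 22.8% of all genes were called.

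Other Toll-responsive effector genes were also called in both directions. Of 13 tested among 16 in the table, 7 were called higher and 3 lower at 29 °C than at 18 °C, with a median log2 difference of 0.33; the 10 called of 13 are close to the 74.5% called among all genes. The tailed Bomanins were all called higher, BomT2 by 0.85 ± 0.10 (SE), BomT1 by 0.74 ± 0.11 and BomT3 by 0.46 ± 0.08 on the log2 scale. The antifungal peptide gene Drs rose by 1.66 ± 0.22 and IBIN, a small immune-induced gene, by 2.34 ± 0.31, more than any of the 9 Bomanin genes at the fitted values. Drsl4 fell by 0.99 (SE 0.09), and Bbd (Bombardier), which short-form Bomanin peptides are known to depend on, fell by 0.31 (SE 0.06). In the light-dark cycle IBIN (-0.92 ± 0.31) and Dso2 (-0.53 ± 0.17) were lower than in darkness, and they were the 2 called genes of 13 in a comparison with 22.8% of all genes called.

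The Imd pathway is the other NF-kappaB arm of fly immunity. Of its 25 genes tested, 13 were called higher and 6 lower at 29 °C than at 18 °C, with a median log2 difference of 0.23; the 19 called of 25 are close to the 74.5% called among all genes. The largest were the peptide genes edin (1.76 ± 0.24 (SE)), CecA1 (1.35 ± 0.21) and AttB (1.30 ± 0.13). Between 29 °C and 25 °C 11 were called higher and 1 lower (13.8% and 13.0% of all genes), among them CecA2 (0.98 ± 0.21), and between 18 °C and 25 °C 5 higher and 9 lower (32.7% and 34.1% of all genes), with Dro at -0.53 ± 0.16. PGRP-LB, an enzyme that damps Imd signalling, was the 1 called gene of 25 for light at 25 °C (0.19 ± 0.05), where 22.8% of all genes were called.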

How the data were processed

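Per the labels, polyadenylated RNA of fly heads was made into strand-specific libraries (NEBNext Ultra II Directional) and sequenced from both ends on a NovaSeq machine. The authors deposited estimated counts per gene, not normalised, for 17610 genes under FlyBase identifiers, of which 17606 matched a symbol. Per the submitters' processing notes, fastp 0.23.2, HISAT2 2.2.1, featureCounts and Subread 2.0.8 were used; the genome build, the strand setting and the treatment of multiply aligned reads are not given in the sources used here. Of the nonzero deposited counts, 40.2% were not whole (tolerance 0.001), and since whole counts had been assumed the values were rounded before each count test.

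TMM scaling was done in edgeR 4.0.16 under R 4.3.3, and filterByExpr by condition kept 10702 of 16896 genes with any count. One quasi-likelihood fit of the 96 libraries had for every condition a mean, 24 h cosine and sine terms and a day shift (16 columns, 80 residual degrees of freedom); the replicate shift was added in a model of 20 columns. P-values were adjusted by Benjamini-Hochberg over all genes tested, and called genes have an adjusted p under 0.05. Residual levels used log2 CPM with a prior count of 2. All 9 members are named; from each list, up to 3 called genes per comparison with the largest change and a mean of at least 1 CPM are named, and the tailed Bomanins, Bbd and the yolk protein and roX genes were added after their values were seen. Alternatives were DESeq2 1.42.0 and limma 3.58.1 (voom), other scaling and filters, a replicate block, subsets of days and replicates, and 2 covariates added after seeing the data. A level comparison between temperatures, the rhythm difference and the replicate shift were also tried on simulated data. Not every kind of test was tried in this way. At the median depth of 21.1 M counts counting error is small beside the spread between libraries, although reads without identifiers need not be separate molecules. The labels call the replicates biological; p-values measure the spread between these libraries. The members and lists were chosen with earlier results of these data known. Of the listed names, Tollip matched no gene, and IMPPP matched BaraA2, already listed. Gene positions are from the BDGP6.54 annotation. No sequences are shown.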

Additional observations from a re-analysis of the deposited data

How the results depend on the processing

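BomS6, BomBc3 and BomS3 between 29 °C and 18 °C, and BomS6 between 18 °C and 25 °C, stayed called in all 13 alternatives; log2 fold changes of BomS6 ran from 0.90 to 1.44 between 29 °C and 18 °C. Other scaling, filters, robust moderation, limma-voom and DESeq2 kept every count of called Bomanin genes within 1.5 times. Leaving out replicates gave 1 to 5 called genes (2 in the full fit) between 18 °C and 25 °C. Among the 5, BomS4 was called as higher at 18 °C. The numbers were 0 to 2 (2) between 29 °C and 25 °C, 0 to 1 (0) for light and 0 to 3 (4) for the rhythm in the light-dark cycle. For the day shift at 25 °C in darkness they were 0 to 1 (0) (BomS4, lower on day 5), and 0 to 1 (0) for the difference of that shift from 18 °C. With day 4 or day 5 alone, 0 genes were called between 29 °C and 25 °C and 0 for the light-dark rhythm; day 5 alone left 1 of 7 for the replicate number. With 2 residual components as covariates, which lower the remaining spread by construction, 5 genes were called between 18 °C and 25 °C. Between 29 °C and 25 °C 4 were called, and 2 for light. For the light-dark rhythm 8 were called, 1 for the rhythm in each dark condition and 2 for the rhythm difference. The day shift was called for 3 at 18 °C and 1 in each other condition. For the replicate number 2 were called, both lower in replicate 2 and so opposite to the 7 of the full fit. The components come from a fit without a replicate term and can hold the replicate shift itself. With the short-transcript level as a covariate the numbers were 1 between 29 °C and 25 °C, 3 for light, 5, 1 and 1 for the day shift at 25 °C without light, at 29 °C and under light-dark cycles, and 4 for the replicate number; BomS1 between 29 °C and 18 °C turned to -0.0092 (edgeR adjusted p = 0.911). The cause was not tested. Calls over all genes depended on the same choices: between 29 °C and 25 °C 2864 became 799 (day 4) to 4397 (2 components), for light 2440 became 568 to 4080, for the light-dark rhythm 1520 became 582 to 3320, for the rhythm difference 563 became 120 to 1526, and for the replicate number 5555 became 930 (day 5).

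The labels do not tie libraries of the same number together. Deviations of same-numbered libraries correlated above 0.1 in 42 of 72 pairs of conditions (lowest -0.20), and model residuals in 113 of 144 (lowest -0.04). Since not every pair did, the numbers were not used as a pairing. Most pairs did, so same-numbered libraries shared some variation, and the full fit does not take it into account. With a replicate block of 24 day, hour and number combinations, 4 genes were called between 18 °C and 25 °C, 4 between 29 °C and 25 °C and 1 for light, and the other counts of the blocked fit did not change by over 1.5 times. DESeq2 gave no value for tests of rhythm, which have 2 terms, and the block none for a single condition's rhythm or day shift.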
